A study of Homo sapiens with 6 samples.

Results

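TNFSF10 and BMF, genes of the extrinsic and the intrinsic arm of apoptosis, were followed in SK-OV-3 cells, a human line derived from an ovarian carcinoma. They are 2 of the 459 genes in the deposited table and were chosen by name, as pro-apoptotic genes linked in the literature to FOXO transcription factors. RNA was sequenced from 3 libraries of wild-type SK-OV-3 cells that received fulvic acid (FA), which is the soluble part of humic matter, for 48 h at 100 µg/ml, and from 3 libraries of the same cells without treatment (control). A time is given for the FA libraries and none for the control libraries. The only question the design poses is which transcripts differ after FA. All libraries came from a single cell line, and the labels do not state whether replicates were cultured apart. The p-values below therefore reflect the spread among these 6 libraries, which may be technical. The table holds only genes that had passed the authors' limits, so that the inclusion of both genes already required a difference between the groups and the tests below are not independent of that selection.

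TNFSF10 encodes TRAIL, a death ligand on the cell surface that binds the receptors TNFRSF10A and TNFRSF10B and thereby recruits FADD and caspase-8. BMF encodes a BH3-only protein, which binds BCL2 and its pro-survival relatives and so frees BAX and BAK1 to open the outer mitochondrial membrane. BMF is held at the cytoskeleton by dynein light chain and is known for its part in anoikis, the death of cells that lose attachment. FOXO factors, which are kept out of the nucleus by AKT signalling, have been reported to activate both genes, and TNFSF10 is also a classical interferon-stimulated gene.

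The promoters of both genes are shown because the genes changed in the same direction and share reported regulators. Each sequence runs 5′ to 3′ on the strand of the gene, from 250 bases before to 30 bases after the start given by RefSeq (GRCh38.p14), and both genes lie on the minus strand, TNFSF10 at chr3:172523401-172523680 and BMF at chr15:40108850-40109129. Capitals mark the matches to the short forkhead core AAACAA, the core of the interferon-stimulated response element (a pair of GAAA blocks with 2 free bases between them) and the core of the aryl hydrocarbon receptor (AHR) element GCGTG, searched on both strands.
TNFSF10: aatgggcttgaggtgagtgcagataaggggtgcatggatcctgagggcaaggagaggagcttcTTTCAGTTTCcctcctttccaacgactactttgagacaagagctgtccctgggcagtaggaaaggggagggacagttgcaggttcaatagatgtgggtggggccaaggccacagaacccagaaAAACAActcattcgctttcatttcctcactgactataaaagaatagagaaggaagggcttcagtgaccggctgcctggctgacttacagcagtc
BMF: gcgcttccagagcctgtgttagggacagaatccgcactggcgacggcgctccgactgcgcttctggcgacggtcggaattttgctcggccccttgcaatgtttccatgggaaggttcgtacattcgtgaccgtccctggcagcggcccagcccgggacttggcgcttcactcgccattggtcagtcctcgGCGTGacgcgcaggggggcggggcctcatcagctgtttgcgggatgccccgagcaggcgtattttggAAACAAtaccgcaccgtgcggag

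The short forkhead core occurred once in each window, at positions -64 to -59 of TNFSF10 and at positions 8 to 13 of BMF, counted from the RefSeq start as position 1. This core is short, and 17.2% of 35116 promoter windows of the same length held it. The full forkhead site GTAAACA, present in 3.25% of windows, had 0 matches in either gene. The interferon-stimulated response element core, held by 3.39% of windows, was found in TNFSF10 on the opposite strand at positions -187 to -178, and BMF had no match. The AHR core was found in BMF at positions -60 to -56 and is held by 34.8% of windows, and TNFSF10 had no match. TNFSF10 held the TATA box TATAAA (11.2% of windows) at positions -31 to -26, and BMF the GC box GGGCGG (44.1% of windows) at positions -45 to -40. No marked matches overlapped. RefSeq lists 2 windows for BMF, and the one that starts further into the gene held none of the 6 motifs. These are matches of letters and say nothing of factor binding.

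The transcripts of both genes were lower with FA. TNFSF10 (ENSG00000121858, chromosome 3, positions 172505508 to 172523507) had 3.71, 3.00 and 3.68 FPKM (fragment counts scaled by transcript length and library depth) in FA 1, 2 and 3, against 19.6, 15.0 and 12.5 FPKM in control 1, 2 and 3. The highest FA library stayed well below the lowest control library, and the control libraries differed more among themselves than the FA libraries did. The means were 3.46 ± 0.40 FPKM with FA and 15.7 ± 3.6 FPKM in the control (SD, n = 3 each). The counts behind these values were 289, 262 and 366 in the FA libraries and 1627, 1432 and 1143 in the control libraries. The log2 fold change was -2.16 (SE 0.19), a 4.47-fold lower level with FA (edgeR quasi-likelihood test, adjusted p = 9.3e-07). In the authors' deposited table the log2 fold change is -2.10 and the FDR 8.2e-24. In such bulk libraries, fewer cells that make a transcript and less of it per cell cannot be told apart.

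BMF (ENSG00000104081, chromosome 15, positions 40087890 to 40108892) was the scarcer transcript in every library. It had 0.708, 0.666 and 0.973 FPKM in FA 1, 2 and 3, against 2.07, 2.10 and 2.32 FPKM in control 1, 2 and 3. FA 3 was the highest of its group and still lay below every control library, and the control libraries were close together. The means were 0.782 ± 0.17 FPKM with FA and 2.16 ± 0.14 FPKM in the control (SD, n = 3 each), from counts of 127, 140 and 211 with FA and 397, 429 and 494 in the control. The log2 fold change was -1.43 (SE 0.18), a 2.70-fold lower level with FA (edgeR quasi-likelihood test, adjusted p = 1.1e-05). In the authors' deposited table the log2 fold change is -1.37 and the FDR 4.6e-11. When the libraries were scaled by TMM over the listed genes alone, which moved the median log2 fold change of all listed genes up by 1.24, BMF stayed lower but lost its call (log2 fold change -0.19, adjusted p = 0.48 with edgeR), while TNFSF10 kept its call (log2 fold change -0.93, adjusted p = 0.0019 with edgeR).

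**Figure D1:**
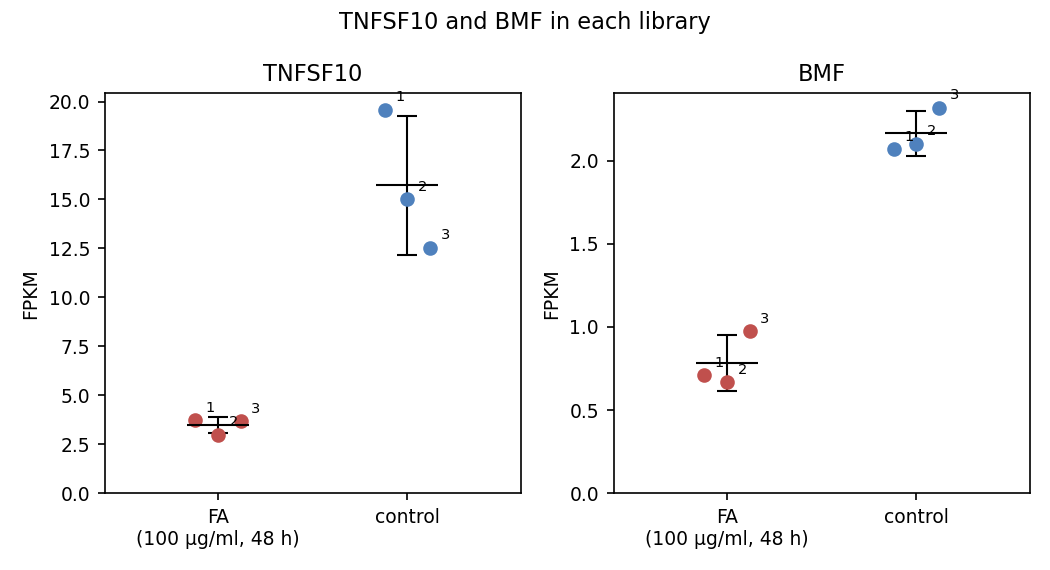
FPKM of TNFSF10 (left) and BMF (right) in each FA and control library, with points numbered by replicate, horizontal bars for the mean and error bars for 1 SD. All FA libraries lie below all control libraries for both genes, at 3.00 to 3.71 against 12.5 to 19.6 FPKM for TNFSF10 and at 0.666 to 0.973 against 2.07 to 2.32 FPKM for BMF.

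These calls have to be read against the table. All 459 listed genes, 100%, passed the edgeR threshold and had groups that did not overlap, and 74.5% of the 459 were lower with FA. Both members being called lower is therefore no result about the pair. Among the 342 genes that were lower in the authors' deposited table, TNFSF10 had the 56th largest decrease, between SAA1 (log2 fold change -2.11) and SCARA3 (-2.08), and BMF the 170th, between AFAP1L2 (-1.38) and CDA (-1.36). These neighbours differ from the members by less than the standard errors of the members in the edgeR fit, 0.19 and 0.18. The median log2 fold change of the lower genes was -1.42 in the edgeR fit, close to the value of BMF. By mean FPKM, TNFSF10 ranked 156th of 459 with FA and 82nd in the control, and BMF ranked 285th with FA and 238th in the control.

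**Figure D2:**
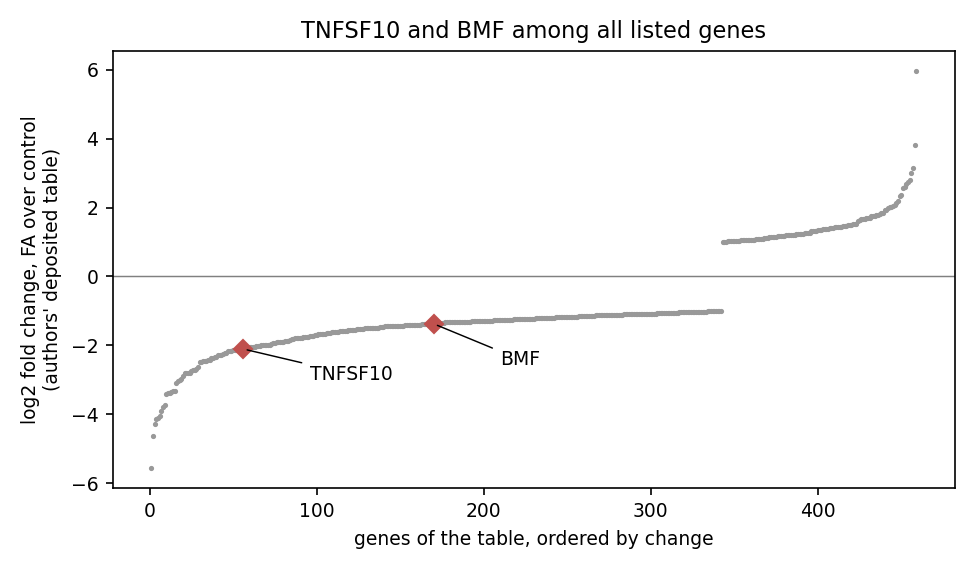
Log2 fold change of FA over control in the authors' deposited table for all 459 genes, ordered from the largest decrease to the largest increase, with TNFSF10 and BMF as red diamonds. TNFSF10 (-2.10) stands in the steeper part of the curve and BMF (-1.37) on its flat middle part, and no gene lies between -1 and 1 because the table holds none.

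The size of the change differed between the members in the libraries measured, on a scale that needs no scaling for depth. A ratio of counts does not remove a difference between libraries that depends on the GC content of genes. The longest transcripts of TNFSF10 and BMF differ in GC content (40.2% and 54.8%), and its part in the ratios was not tested. The count of TNFSF10 divided by that of BMF was 2.28, 1.87 and 1.73 in FA 1, 2 and 3, against 4.10, 3.34 and 2.31 in control 1, 2 and 3. Every FA ratio lay below every control ratio, although FA 1 and control 3 nearly met. The geometric mean was 1.95 with FA and 3.16 in the control, a log2 difference of -0.70 (SE 0.27, n = 3 each). The exact two-sided permutation test gave p = 0.1, which is the smallest p that 3 against 3 libraries allow, so the test cannot pass 0.05 whatever the difference. Without control 1 the difference was -0.51, and without control 3 it was -0.93.

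Deviations of the libraries were not fitted against GC content over all genes. In the control libraries, TNFSF10 deviated much like the 20 genes nearest to it in GC content. Its longest annotated transcript has a GC content of 40.2%, that of BMF 54.8%, and the median over 371 annotated genes that averaged 50 counts or more was 51.9%. On the log2 scale, TNFSF10 deviated from the mean of the control group by 0.33, -0.02 and -0.31 in control 1, 2 and 3. The 20 genes nearest to it in GC content had median deviations of 0.38, -0.05 and -0.30 in the same libraries. BMF deviated by -0.04, -0.10 and 0.14, with median deviations of -0.06, 0.01 and 0.10 for the 20 genes nearest to it. Among the FA libraries, the members deviated by at most 0.26, the value of BMF in FA 3, where its 20 nearest genes had -0.11. Without control 1 the log2 fold change of TNFSF10 was -1.98 and that of BMF -1.46, so both decreases remained without that library.

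Counts and FPKM together give the transcript length that the authors' FPKM values imply. It was 1950, 1960 and 1960 bases for TNFSF10 in FA 1, 2 and 3, and 1910, 1950 and 1920 bases in control 1, 2 and 3, beside a longest annotated transcript of 1953 bases among 6. For BMF it was 4490, 4710 and 4260 bases in the FA libraries and 4410, 4180 and 4490 bases in the control libraries, beside a longest annotated transcript of 4687 bases among 10. The lengths implied for BMF overlapped between the groups. No exonic base of TNFSF10 is shared with another annotated gene. Of the exonic bases of BMF, 8.46% (461 bases) are also exonic in its antisense gene BMF-AS1, and without a statement of whether counting used strand, reads of the pair cannot be told apart there.

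Around TNFSF10, the list of death ligands and death receptors had 2 of its 26 genes in the table, TNFSF10 itself and TNFRSF11B. TNFRSF11B encodes osteoprotegerin, a secreted decoy receptor that binds TRAIL and the bone cytokine RANKL. It was higher with FA, at 7.69, 7.24 and 8.58 FPKM in FA 1, 2 and 3, against 5.45, 3.54 and 2.95 FPKM in control 1, 2 and 3. The groups did not overlap, as for all 459 listed genes, and control 1 was the highest control library for this gene as for TNFSF10. The log2 fold change was 0.99 (SE 0.21, edgeR adjusted p = 0.00052). Without control 1 it was 1.27, and without control 3 it was 0.82. Genes called higher made up 25.5% of the table. The signal-transducing TRAIL receptor genes TNFRSF10A and TNFRSF10B, and FADD and CASP8, had no row and were not analysed here.

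Per length, the order of ligand and decoy receptor transcripts was opposite in the groups. TNFRSF11B FPKM divided by TNFSF10 FPKM was 2.07, 2.42 and 2.33 in FA 1, 2 and 3, against 0.278, 0.236 and 0.235 in control 1, 2 and 3. All FA libraries thus held more TNFRSF11B than TNFSF10, and all control libraries less. The geometric mean ratio was 2.27 with FA and 0.249 in the control, a log2 difference of 3.19 (SE 0.10, n = 3 each), with an exact two-sided permutation p = 0.1, the smallest possible. This ratio was chosen after the values of both genes were seen. Each FA library was above every control library for TNFRSF11B and below every control library for TNFSF10. The ratios therefore had to separate, and the test could give no other p, so it adds no support. The ratio was 1 of 2 computed, and adjustment over both leaves p at 0.1. Control 1, which stood high for both genes, did not stand far apart in the ratio.

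**Figure D3:**
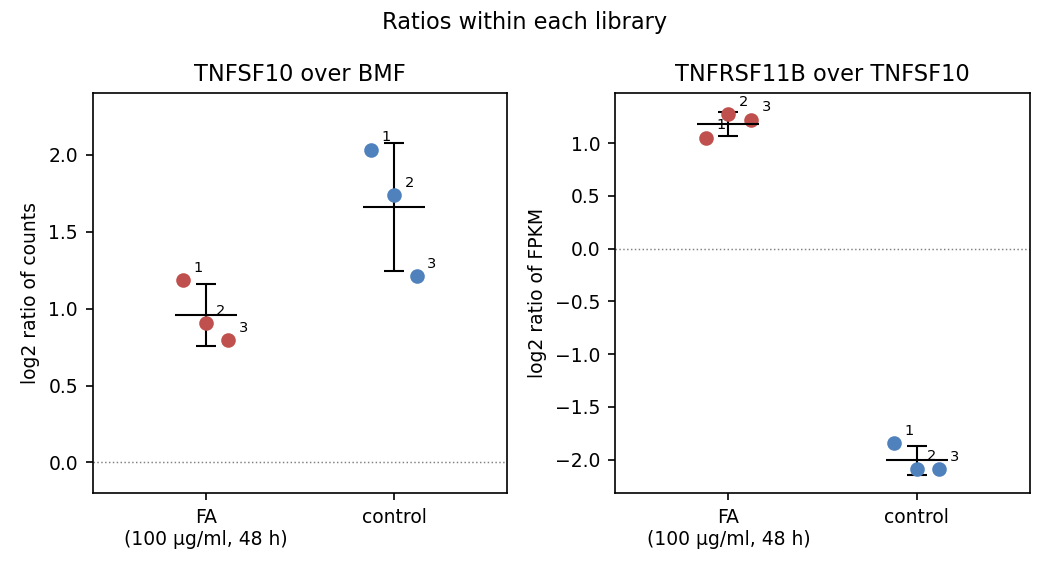
Log2 ratios within each library of TNFSF10 to BMF counts (left) and of TNFRSF11B to TNFSF10 FPKM (right), with points numbered by replicate, horizontal bars for the mean and error bars for 1 SD. The left ratio averages 0.96 with FA and 1.66 in the control, and the right ratio lies above 0 in every FA library and below 0 in every control library.

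Of 35 genes of the death-inducing complex, the caspases and their inhibitors, BIRC7 was in the table. BIRC7 (livin) is an inhibitor of apoptosis protein that restrains caspases, so that its role opposes that of the members. It had 0.729, 0.699 and 0.408 FPKM in FA 1, 2 and 3, against 2.26, 3.78 and 3.68 FPKM in control 1, 2 and 3. Its groups did not overlap, as for all 459 listed genes, and control 1 was the lowest control library. The log2 fold change was -2.40 (SE 0.29, edgeR adjusted p = 8.4e-06), and its difference from the change of TNFSF10 was not tested. In the list of 27 BCL2 family genes and partners of BMF, BMF was the gene in the table. The related BH3-only genes BCL2L11 and BBC3 and the pro-survival genes BCL2, BCL2L1 and MCL1 had no row and were not analysed here.

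The list of FOXO factors and their reported targets had 6 of 60 genes in the table, of which 2 were higher and 4 lower, the members among the lower ones. Lower genes made up 74.5% of the table. Without the members, 2 of the other 4 genes were higher and 2 lower, with a median log2 fold change of -0.19, beside -1.28 for all 459 genes. That median falls between CAV1 at -1.51 and FOXO1 at 1.13, and none of the 4 genes lay near it. FOXO1, which encodes a FOXO transcription factor, was higher, at 51.6, 49.0 and 52.0 FPKM in FA 1, 2 and 3, against 25.2, 22.4 and 21.8 FPKM in control 1, 2 and 3. Its groups were far apart relative to their spread, with a log2 fold change of 1.13 (SE 0.12, edgeR adjusted p = 3.2e-06). FOXO1 transcript therefore moved opposite to both members, and a transcript level does not give the amount or the location of the protein.

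The other listed FOXO targets were divided in direction. IGFBP1, a binding protein of insulin-like growth factors that FOXO1 activates in liver, had 50.3 ± 2.7 FPKM with FA and 8.88 ± 1.5 FPKM in the control (SD, n = 3 each), a log2 fold change of 2.50 (SE 0.16, edgeR adjusted p = 8.7e-08). GADD45B, a stress-induced regulator of growth arrest, had 9.46 ± 1.4 FPKM with FA and 48.3 ± 5.8 FPKM in the control, a log2 fold change of -2.32 (SE 0.16, edgeR adjusted p = 1.75e-07). CAV1, the main coat protein of caveolae, had 44.7 ± 3.1 FPKM with FA and 126.8 ± 16.5 FPKM in the control, a log2 fold change of -1.51 (SE 0.13, edgeR adjusted p = 9.3e-07). TNFSF10 thus lay near GADD45B in the size of its decrease, and BMF near CAV1.

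Of 50 interferon-stimulated genes, the table held 11, and 10 of the 11 were lower, TNFSF10 included. Without TNFSF10, 9 of 10 were lower, beside 74.5% of all listed genes. The median log2 fold change of these 10 was -1.46, beside -1.28 for all listed genes. TNFSF10, at -2.16, had the largest decrease of the 10 lower genes on the list. IFITM1, a membrane protein that restricts viral entry, followed with -1.72 (SE 0.17), and OAS1, an activator of RNase L, with -1.62 (SE 0.24). IFI6, IFITM2, IFITM3, OAS3, OAS2, TRIM22 and IRF1 ranged from -1.59 to -1.11, of which TRIM22 and IRF1 turned to 0.019 and 0.14 under TMM over the listed genes. Under that scaling IFI6, IFITM2, IFITM3, OAS1, OAS2 and OAS3 kept negative values that missed the threshold of edgeR. ISG20, an exonuclease, was the listed gene that was higher, with 1.68 (SE 0.18). None of these 11 genes had an edgeR adjusted p above 0.000565. IFITM1 and IFITM2 share exonic bases with each other, and IFITM3 is a close paralog of both. Of the exonic bases of IFITM3, TRIM22 and IRF1, 21.3%, 10.7% and 22.0% are shared with other genes. The counts of all these genes may therefore be shared.

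Attachment genes were listed because BMF acts in anoikis. Of 36 such genes, the table held 4, and all 4 were lower, beside 74.5% of all listed genes. Their median log2 fold change was -2.01, beside -1.28 for all listed genes. The integrin genes ITGB3 and ITGB6 had 0.394 ± 0.059 and 0.892 ± 0.36 FPKM with FA, and 2.89 ± 0.12 and 5.12 ± 1.9 FPKM in the control (SD, n = 3 each). The receptor tyrosine kinase gene AXL had 22.6 ± 2.3 FPKM with FA and 58.3 ± 8.6 FPKM in the control, and CAV1 is described above. Under TMM over the listed genes, AXL and CAV1 kept negative values that missed the threshold of edgeR. None of these 4 genes had an edgeR adjusted p above 9.0e-06. Of the exonic bases of ITGB3 and ITGB6, 51.6% and 20.6% are shared with other genes, so their counts may be shared.

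**Figure D4:**
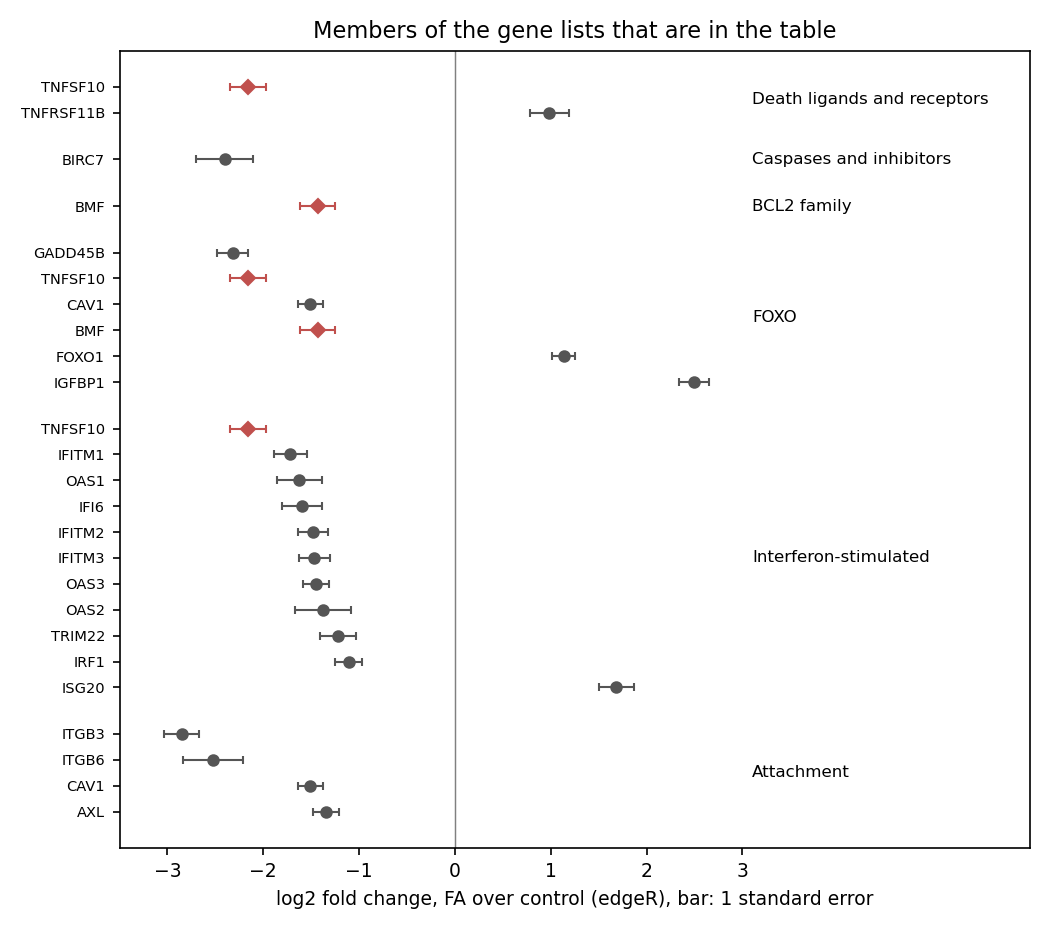
Log2 fold change of FA over control in the edgeR fit, with bars of 1 standard error, for every gene of the 6 lists that is in the table, and with TNFSF10 and BMF as red diamonds in each list that holds them. TNFRSF11B (0.99), FOXO1 (1.13), ISG20 (1.68) and IGFBP1 (2.50) lie right of 0, and the other listed genes lie left of it.

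The genes whose pattern over the 6 libraries was most like that of each member were found by the root mean square difference of log2 depth-scaled counts, each gene centred on its own mean, among 370 annotated genes. For TNFSF10 these were PHLDB2, which anchors microtubules at the cell cortex (0.18), CFI, the complement factor I protease (0.21), P2RY6, a receptor for UDP (0.21), SAA2, a serum amyloid protein (0.23), and KCNJ16, a potassium channel (0.23). All had control 1 or control 2 as their highest library. For BMF they included COL1A1, a collagen I chain (0.08), COL6A3, a collagen VI chain (0.12), KIF26B, a kinesin (0.12), and AGFG2 (0.15). Some of these genes had low counts in FA 1, 2 and 3, with 22, 12 and 21 for P2RY6. KCNJ16 had 36, 41 and 46 counts there, and COL1A1 had 40, 42 and 64. The level of COL1A1 with FA relative to control was 0.354 in the edgeR fit of counts but 0.457 by mean FPKM. For BMF these values were 0.370 and 0.362, so the changes of COL1A1 and BMF lay further apart on FPKM. Likeness on FPKM was not computed. The members were not close to each other, at 0.44, so that BMF stood 90th in likeness to TNFSF10 and TNFSF10 227th in likeness to BMF. This measure includes the size of the difference between FA and control, which was larger for TNFSF10 than for BMF. Every listed gene had such a difference, so likeness here partly restates the size of the change. Likeness within the groups alone was not tested. Of the exonic bases of CFI, 32.0% are shared with other genes, and SAA2 has a near-identical copy in SAA1, so their counts may be shared.

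**Figure D5:**
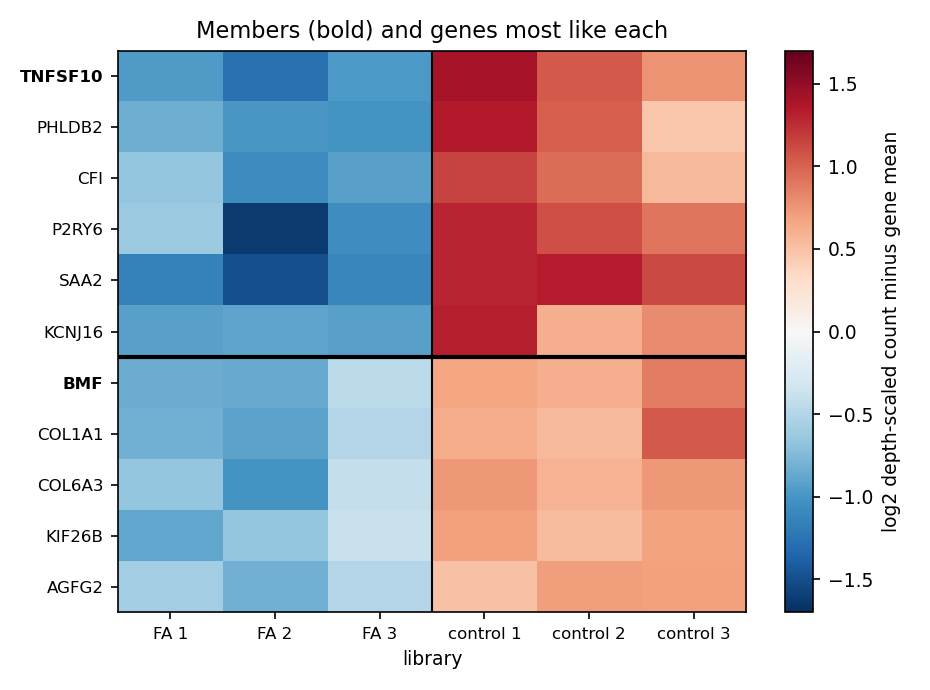
Log2 depth-scaled counts of the members (bold) and of the genes named as most like each, minus the mean of each gene, with FA libraries left of the control libraries. TNFSF10 runs from -1.27 in FA 2 to 1.40 in control 1, and BMF from -0.86 in FA 2 to 0.86 in control 3.

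COL1A1 is also the single gene of a list of 7 fibroblast markers that was in the table. It had 0.138 to 0.317 FPKM in the FA libraries and 0.387 to 0.546 FPKM in the control libraries, a low level in both, and the part of other cells in the change of BMF was not tested. None of 10 markers of SK-OV-3 or ovarian epithelium, 10 of leukocytes, which make TRAIL in blood, and 4 of endothelium had a row, so the labelled cell line could not be checked against its markers here.

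Implied depth was 39900000 to 50900000 fragments in the FA libraries and 43500000 to 48800000 in the control libraries. The listed genes held 561604 to 696553 counts per FA library and 677126 to 796663 per control library. At this depth the members had at least 127 counts in every library, and their replicate variation, as the biological coefficient of variation of edgeR, was 16.4% for TNFSF10 and 15.0% for BMF, beside a median of 16.4% over all listed genes.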

How the data were processed

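Polyadenylated RNA was captured with oligo(dT) from Trizol extracts, fragmented and made into cDNA libraries, per the labels' protocols. Per the file headers, the deposited table gives for each gene and library a raw count and an FPKM value, which the authors scaled by gene length and library size, together with the authors' FDR (an adjusted p-value) and log2 fold change of FA over control. The submitters' processing notes name the build GRCh38. The sources used here do not name the aligner, the counter, the strand setting or the authors' test. The smallest absolute log2 fold change in the deposited table was 1.00 and the largest FDR 0.00977, and other genes were not analysed here.

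Groups and replicate numbers came from the sample titles. Library depth was recovered from the ratio of counts to FPKM over 180 genes (200 or more counts in each library), and put on an absolute scale by 16 genes (1 annotated transcript, 100 or more counts). No replicate libraries agreed within sampling noise (chi-square per gene of 8.49 to 11.6 between FA libraries and 17.8 to 81.2 between control libraries). Counts of all 459 genes were fitted in R 4.3.3 by the quasi-likelihood method of edgeR 4.0.16 (group as the only term, recovered depth as library size, no filter), with Benjamini-Hochberg adjustment over the 459 genes and a threshold of 0.05. Standard errors were taken as the size of the log2 fold change over the root of the F statistic. The fit was tested on simulated data. Ratios within libraries were compared with exact permutation tests (scipy 1.17.1). Gene positions, exons and GC content are from GENCODE release 29 (GRCh38), in which 399 of the 459 genes were found with the same symbol. Promoters, found for both members, are from RefSeq.

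The members, the 6 gene lists and the 4 marker lists were chosen with earlier results of these data known. Genes are named if they are members, if they are on a list and in the table, or if they are among the 5 genes most like a member (root mean square difference of log2 depth-scaled counts, prior count 1, mean of at least 50 counts), of which 1 is not reported here. SAA1, SCARA3, AFAP1L2 and CDA were named after their values were seen. Alternatives were other library scalings, DESeq2 1.42.0, limma 3.58.1 on log2(FPKM + 0.1) and log2(FPKM + 1), a filter on low counts, the replicate number as a block, and leaving out each library.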

Additional observations from a re-analysis of the deposited data

How the results depend on the processing

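Of 15 alternatives, TNFSF10 kept its direction and its call in all 15 (log2 fold changes of -2.16 to -0.93 over the settings that keep every library, and -2.30 to -1.98 when single libraries were left out). BMF kept its direction in all 15 and its call in 13, with -1.58 to -1.36 when single libraries were left out. The exceptions for BMF were TMM over the listed genes (-0.19, edgeR adjusted p = 0.48) and DESeq2 with its own size factors over them (-0.19, adjusted p = 0.51). Scaling by the column totals of the listed genes kept its call (-1.19, edgeR adjusted p = 7.7e-05). The TMM and DESeq2 scalings set the typical listed gene to no change by construction and moved the median log2 fold change by 1.24. With them the genes called dropped from 459 to 198 with TMM (117 higher, 81 lower, 40.9% of calls lower) and to 204 with DESeq2 size factors (117 higher, 87 lower, 42.6% lower), the list genes other than the members called from 19 to 9 and 9, and IRF1 turned to 0.14 and 0.13 and TRIM22 to 0.019 and 0.011. Of 420 values of the 28 other named genes under these alternatives, 389 kept direction and call, 27 kept the direction and lost the call, and 4 changed sign, all of the changes under these scalings. With log2(FPKM + 1) the log2 fold change of BMF was -0.83, since a pseudocount near the level of a gene shrinks its change.

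Leaving out single libraries left 459 genes and 19 list genes called in each case, and gave log2 differences of -0.93 to -0.51 for TNFSF10 to BMF and 3.14 to 3.27 for TNFRSF11B to TNFSF10. Same-numbered libraries did not deviate together (correlations of 0.01, 0.11 and -0.17 over 418 genes), and pairs with different numbers gave -0.18 to 0.18. Whether the numbers pair libraries of a culture or a day cannot be told from these correlations. With the replicate block the log2 fold change was -2.14 for TNFSF10 and -1.44 for BMF, 459 genes were called, and no call changed. The fold changes of the authors and those scaled by depth differ by a constant shift of the libraries, 0.06 on the log2 scale. Of the members, BMF had the lower counts, with 127 in its lowest library. The list counts under the alternatives and the ratio of TNFRSF11B to TNFSF10 were chosen after seeing the data.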
